A study of Mus musculus with 6 samples.

Results

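The cation-chloride cotransporter genes of the Slc12 family were examined by RNA-seq of the primary somatosensory cortex, taken from C57BL/6 mice at 14 days of age. The group was fixed by gene symbol and held 4 genes, Slc12a2, Slc12a4, Slc12a5 and Slc12a7, of 47794 in the deposited table, and each symbol matched 1 Ensembl ID. The 6 libraries fell into 2 groups of 3. Ovp cortex came from mice with a floxed exon 3 of the β-catenin gene together with Nex-Cre, and Ctrl cortex from mice with that floxed allele and no Cre. Exon 3 encodes the sites that mark β-catenin for degradation, and Nex-Cre, driven from the Neurod6 locus, acts in excitatory neurons of the forebrain, so other cell types of the dissected tissue keep the intact allele. Because no Ctrl animal carried Nex-Cre, an effect of the stabilised protein and one of the driver allele cannot be told apart. In bulk tissue, fewer cells of a type and less RNA per cell cannot be told apart either. Whether the numbered libraries of a group stem from different animals is not stated, so a p-value measures only the spread between these libraries, which may be technical.

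Cation-chloride cotransporters move chloride across the membrane together with sodium and potassium, or with potassium alone. NKCC1, encoded by Slc12a2, loads cells with chloride, and KCC2, the product of Slc12a5, is a neuronal transporter that extrudes it. The relation of the pair sets whether chloride flows into or out of a neuron when GABA-A receptors open, and in rodent cortex it shifts towards KCC2 after birth as GABA changes from a depolarising to a hyperpolarising transmitter. Slc12a4 encodes KCC1 and Slc12a7 encodes KCC4, potassium-chloride cotransporters found in many tissues that serve in cell volume control.

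In GENCODE M21 on GRCm38, which need not be the annotation the authors counted with, Slc12a5 (ENSMUSG00000017740) lies on the plus strand at chr2:164960802-164999731. Slc12a4 (ENSMUSG00000017765) lies on the minus strand at chr8:105943590-105966097 and Slc12a7 (ENSMUSG00000017756) on the plus strand at chr13:73733094-73816754. Of the 4 cotransporter genes, Slc12a4 was the 1 that overlapped other genes of that annotation. The microRNA gene Mir7074, on the same strand, shared 0 exon bases with Slc12a4. The antisense gene Gm16156 shared 361 exon bases with Slc12a4, and reads from the shared bases cannot be told apart where strand was not used. Gm16156 itself had a mean of 4.07 scaled reads in Ovp and 5.66 in Ctrl cortex.

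The table held 1 mean per gene and group and no isoforms, which matters most for Slc12a5, a gene with a pair of first exons. The upstream exon opens the KCC2a form and the downstream exon the KCC2b form, and the gene-level value adds them. The 250 bases before each start are shown from RefSeq's GRCm38.p6 table, plus strand, at chr2:164960596-164960845 and chr2:164967738-164967987. The same stretch before the second Slc12a7 start at chr13:73763447-73763696, plus strand, is set beside them because it holds the same motif. Capitals mark CACGTG, the palindromic E-box that USF factors bind, which was searched on both strands and overlaps no other motif searched.
Slc12a5 start 1: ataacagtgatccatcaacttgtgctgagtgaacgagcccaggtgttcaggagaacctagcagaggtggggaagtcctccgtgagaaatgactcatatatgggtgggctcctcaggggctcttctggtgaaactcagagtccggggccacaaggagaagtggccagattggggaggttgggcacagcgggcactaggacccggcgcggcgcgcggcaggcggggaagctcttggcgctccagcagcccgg
Slc12a5 start 2: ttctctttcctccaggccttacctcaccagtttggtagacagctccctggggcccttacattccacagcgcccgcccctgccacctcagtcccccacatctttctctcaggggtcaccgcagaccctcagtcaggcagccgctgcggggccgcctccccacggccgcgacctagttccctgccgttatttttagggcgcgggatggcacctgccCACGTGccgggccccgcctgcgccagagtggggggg
Slc12a7 start 2: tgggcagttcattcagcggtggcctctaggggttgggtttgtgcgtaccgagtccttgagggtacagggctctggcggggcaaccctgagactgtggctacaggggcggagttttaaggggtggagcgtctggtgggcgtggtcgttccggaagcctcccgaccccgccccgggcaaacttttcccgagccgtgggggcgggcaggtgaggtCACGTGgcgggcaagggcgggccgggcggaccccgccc
The E-box stood at position -36 from the second Slc12a5 start and at position -38 from the second Slc12a7 start, counted to its first base. It was absent from the window of the first Slc12a5 start, of the first Slc12a7 start, which ends inside the E-box of the second, and of the Slc12a4 start. Of 32851 RefSeq windows of that length, 6.02% held CACGTG. Neither TCAAAG nor ACAAAG, core letters of TCF/LEF sites and searched on both strands, occurred in any of these windows, against 13.8% and 16.5% of all windows. GCGNGGGCG, a binding motif of EGR factors, was absent too, against 4.70% of all windows. The genes of factors that bind the E-box or the EGR motif, named here outside the rule for named genes, were not called. Usf1 had a mean of 889 scaled reads in Ovp and 877 in Ctrl cortex, Usf2 695 in Ovp and 710.3 in Ctrl cortex, and Egr4 583 in Ovp and 690 in Ctrl cortex. A match of letters is a description and not a site, and a window without one says nothing of the factor.

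Levels were given as the authors' mean scaled read count, that is, reads divided by a scaling factor per library and averaged over the 3 libraries of a group. Over all genes these means summed to 18602579 in Ovp and 19016749 in Ctrl cortex. Scaling factors read from the lowest values, which follow relative depth, lay between 0.966 and 1.23 in Ovp and between 0.907 and 0.982 in Ctrl libraries. The gene targeted in the mice, Ctnnb1, had a mean of 6391 in Ovp and 7574 in Ctrl cortex, with p = 0.0304 before and 1 after adjustment in the authors' deposited table. The value sums reads from all exons, so it does not check the loss of exon 3. The excitatory marker Slc17a7 had means of 30449 in Ovp and 31689 in Ctrl cortex, and none of the 6 neuronal markers was listed at 0.

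Among the 4 genes, the neuronal exporter gene Slc12a5 had by far the highest level. Per kilobase of annotated exon its mean was 1383 scaled reads in Ovp and 1479 in Ctrl cortex. Slc12a2 followed with 134 in Ovp and 133 in Ctrl cortex, then Slc12a4 with 88.4 in Ovp and 81.1 in Ctrl cortex, and Slc12a7 was lowest with 9.19 in Ovp and 9.53 in Ctrl cortex. The order was the same in both groups. Of the level per kilobase summed over the 3 members that carry potassium with chloride, Slc12a4, Slc12a5 and Slc12a7, Slc12a5 made up 93.4% in Ovp and 94.2% in Ctrl cortex. Slc12a4 made up 5.97% in Ovp and 5.16% in Ctrl cortex, and Slc12a7 0.621% in Ovp and 0.607% in Ctrl cortex. These lengths are the union of all annotated exons. With the longest coding transcript in its place, which was chosen after seeing the data, the order of the 4 genes was the same. The share of Slc12a5 was then 93.3% in Ovp and 94.1% in Ctrl cortex, and that of Slc12a7 was 1.24% in Ovp and 1.21% in Ctrl cortex. Of neighbours in the order, Slc12a4 and Slc12a7 alone have a spread over libraries on both sides, and with library values within 2-fold of the mean every library of Slc12a4 stood above every library of Slc12a7, whose exons are longer. For the other neighbours the difference could not be set against such a spread.

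**Figure D1:**
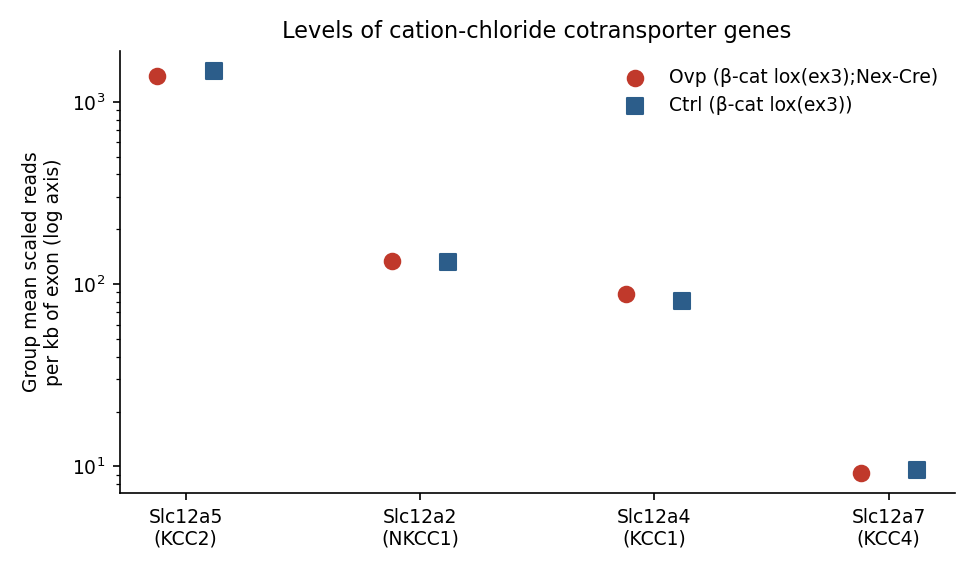
Group mean scaled reads per kilobase of annotated exon (log axis) for Slc12a5, Slc12a2, Slc12a4 and Slc12a7, with Ovp as circles and Ctrl as squares; points are the authors' group means, which carry no error. Slc12a5 stands at 1383 in Ovp and 1479 in Ctrl cortex, and Slc12a7 at 9.19 in Ovp and 9.53 in Ctrl cortex.

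None of the 4 genes was called between the groups. The authors' deposited table gave 0 of them an adjusted p below 0.05, and 0 reached that level without adjustment. Over all 30152 genes tested there, 0% were called, 0 genes in number, and 161 genes or 0.534% fell below 0.05 before adjustment. A count of 0 among 4 genes is at that background. Slc12a4 and Slc12a2 had higher means and Slc12a5 and Slc12a7 lower means in Ovp cortex, and the median log2 fold change of the 4 was -0.02. It was -0.02 as well over 11645 genes averaging 100 or more scaled reads, and -0.01 over all tested genes seen in both groups.

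**Figure D2:**
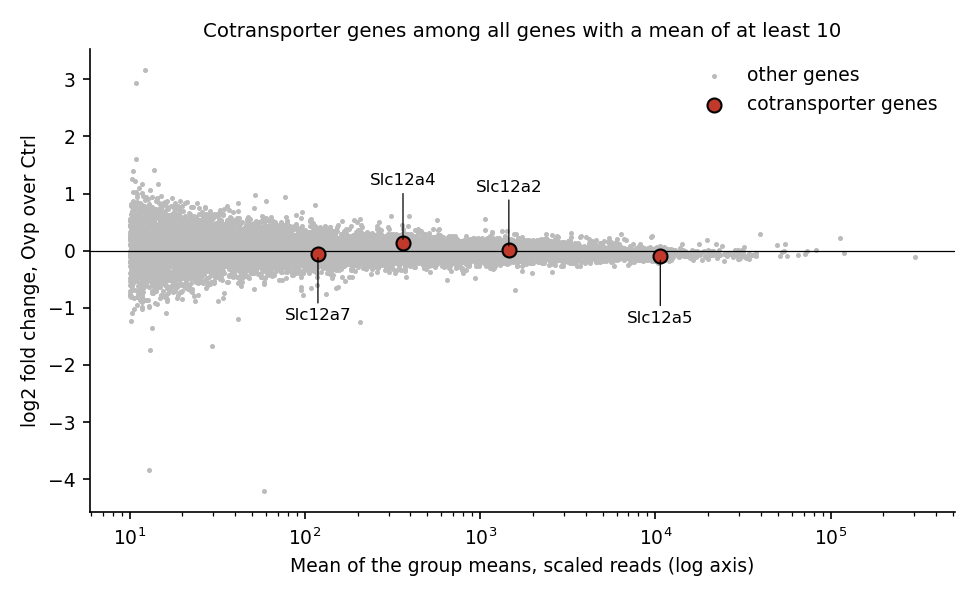
Log2 fold change (Ovp over Ctrl) against the mean of the group means in scaled reads (log axis) for genes averaging 10 or more; grey points are other genes and red points the cotransporter genes. The 4 genes lie between -0.10 and 0.13, inside the cloud of genes of like level.

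Slc12a5, the KCC2 gene, had a mean of 10300 scaled reads in Ovp cortex, against 11014 in Ctrl cortex. Its log2 fold change was -0.10, for which the authors' deposited table listed p = 0.401, or 1 after adjustment. Of the 11645 genes averaging 100 or more, 31.2% had a fold change at least as far from 0. Values of single libraries were recovered where exactly 1 combination of whole reads, each divided by its scaling factor, gave the deposited mean. For Slc12a5 they could not be had. Group means of this size could be built from whole reads in 105 ways in Ovp and 84 in Ctrl cortex, even with every library within 1.1-fold of the mean. For scale, among 1729 genes that have library values and average 300 or more, the median 95% limma interval reached 1.18-fold to either side of the fitted fold change. The Slc12a5 mean differed by -6.49% (Ovp relative to Ctrl), which is less than that width. Values were recovered only for group means up to 1000, well below the level of Slc12a5. The width therefore gives a scale only and is not the error of the Slc12a5 value. Markers of neurons, the cells that express KCC2, had the same direction. All 6 (Snap25, Rbfox3, Syt1, Slc17a7, Gad1 and Gad2) had lower means in Ovp cortex, with log2 fold changes from -0.13 to -0.03 and none past the authors' threshold. Their summed level was 107133 in Ovp and 112058 in Ctrl cortex, and their part in the Slc12a5 value was not tested.

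Slc12a2 (ENSMUSG00000024597), the NKCC1 gene, lies on the plus strand at chr18:57878678-57946821 in GENCODE M21 on GRCm38. It had a mean of 1463 scaled reads in Ovp and 1451 in Ctrl cortex, the ratio nearest to 1 among the 4 genes. Its log2 fold change was 0.01, for which the authors' deposited table listed p = 0.884, or 1 after adjustment, and 89.6% of genes averaging 100 or more had one at least as far from 0. Its library values could be narrowed but not settled. A limit of 1.2-fold around the group mean held for 88.9% of group means among those 1729 genes. Their values were themselves sought within 2-fold of the mean, so wider spreads are left out of that share. With each Slc12a2 library within 1.2-fold of the group mean, 1 combination of whole reads gave the Ctrl mean. It was 1341, 1561 and 1452 scaled reads in Ctrl libraries A, B and C. The Ovp mean allowed 2 combinations, either 1521, 1462.5 and 1405 or 1273, 1471 and 1645. In the first the Ovp libraries lie within the Ctrl range and in the second they reach beyond it on both sides, so the groups overlapped in each. Within 2-fold of the mean there were 19 combinations in Ovp and 6 in Ctrl cortex, so these values were not tested. Libraries are lettered by scaling factor within a group, and no letter can be tied to a replicate number or paired across groups.

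The balance of exporter to importer was read from the pair together. In bulk cortex each level sums RNA over all cell types, so the ratio is one of tissue RNA and not the balance within neurons. Slc12a5 stood at 10.3 times Slc12a2 per kilobase in Ovp cortex, against 11.1 times in Ctrl cortex, and with the longest coding transcript as length at 7.61 times in Ovp and 8.21 times in Ctrl cortex. On the log2 scale, where length cancels, the ratio differed by -0.11 (Ovp minus Ctrl), and the Ovp ratio was 0.928 of the Ctrl ratio. No test could be made, because Slc12a5 has no library values. The value has no error of its own and was smaller than the median residual SD between libraries of 1 gene, 0.127 on the log2 scale over the 1729 genes averaging 300 or more. That SD describes single libraries of genes well below Slc12a5 in level. It gives a scale only and is not the error of a difference between group ratios. With 3 libraries a group, an exact two-sided permutation test could not have gone below p = 0.1.

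Slc12a4, the KCC1 gene, is 1 of 2 members with 1 combination of reads within 2-fold of the mean in each group, and with those values its groups did not overlap. These values were 363, 353 and 419 scaled reads in Ovp libraries A, B and C, against 343, 346 and 352 in Ctrl libraries A, B and C. The Ctrl libraries sat close together, and Ovp library C stood above all others. These rest on 446, 375 and 405 reads in Ovp and 337, 320 and 319 reads in Ctrl libraries. The mean was 378 ± 35.5 in Ovp and 347 ± 4.47 in Ctrl cortex (SD, n = 3 each). Among 10191 genes that have library values and average 10 or more, 4.33% had all Ovp above all Ctrl libraries and 2.73% all Ovp below all Ctrl libraries. The exact two-sided permutation test gave p = 0.1, the smallest it can give with 3 against 3. By limma the log2 fold change was 0.12 ± 0.10 (SE), with a 95% interval from -0.10 to 0.35 and an adjusted p of 0.9995, while limma called 0% of the 10191 genes and gave 216 of them, 2.12%, p below 0.05 before adjustment. For Slc12a4 the authors' deposited table listed p = 0.414, or 1 after adjustment. Without Ovp library C the log2 ratio of group means was 0.05, against 0.13 with all libraries. With no limit on the spread, a second combination also gave the Ovp mean, with 115, 361 and 659 scaled reads in Ovp libraries A, B and C. In it Ovp library A lies below every Ctrl library, so the groups would overlap, and the SD, the tests and the values without a library given here hold for the first combination alone. Markers of oligodendrocytes had higher means in Ovp cortex in 6 of 6 cases (among them Mbp, Mog, Mag, Mobp and Cnp), with log2 fold changes from 0.08 to 0.12 and summed levels of 137777 in Ovp and 128119 in Ctrl cortex. None passed the authors' threshold. All 5 progenitor markers were higher too, while all 6 neuronal markers were lower. Of all tested genes averaging 100 or more, 57.8% were lower. The part of any of these cells in the Slc12a4 value was not tested.

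Slc12a7, the KCC4 gene, varied more among libraries than between groups. Its values were 83.9, 119 and 147 scaled reads in Ovp libraries A, B and C, against 118, 138 and 106 in Ctrl libraries A, B and C. Ovp libraries A and C were the lowest and the highest of all 6, so the Ovp range enclosed the Ctrl range. These rest on 103, 126 and 142 reads in Ovp and 116, 128 and 96 reads in Ctrl libraries. The mean was 116 ± 31.6 in Ovp and 121 ± 16.3 in Ctrl cortex (SD, n = 3 each), which is a coefficient of variation of 27.1% in Ovp and 13.5% in Ctrl cortex. For Slc12a4 that figure was 9.39% in Ovp and 1.29% in Ctrl cortex. The exact two-sided permutation test gave p = 0.9. By limma the log2 fold change of Slc12a7 was -0.08 ± 0.20 (SE), with a 95% interval from -0.52 to 0.36 and an adjusted p of 0.9995. The authors' deposited table listed p = 0.756, or 1 after adjustment. Single libraries set the sign. The log2 ratio of group means was -0.05 with all libraries, 0.14 without Ovp library A, -0.25 without Ovp library C, 0.06 without Ctrl library B and -0.14 without Ctrl library C.

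**Figure D3:**
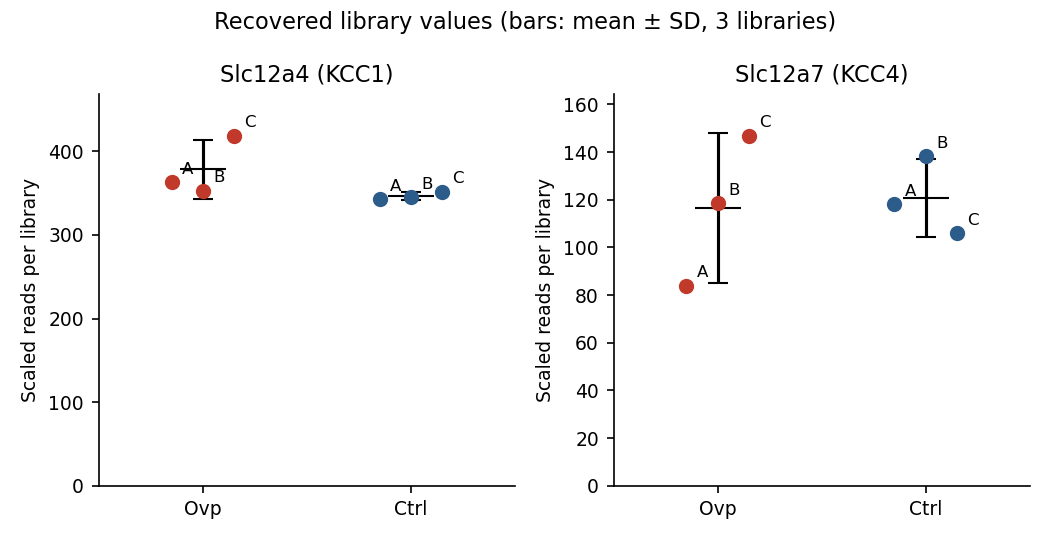
Scaled reads in each recovered library (points, lettered by scaling factor within the group) for Slc12a4 on the left and Slc12a7 on the right, with Ovp in red and Ctrl in blue; bars are the mean ± SD of 3 libraries. With Slc12a4 values within 2-fold of the mean, the points of Ovp lie above those of Ctrl, 353 to 419 against 343 to 352, while the Slc12a7 points of Ovp, 83.9 to 147, enclose those of Ctrl.

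The genes whose library profile was most like that of each member were taken by Pearson's r of log2(value + 1) over the 6 libraries, among 4636 other genes that have library values and average 100 or more. For Slc12a7 they were Colec12, a scavenger receptor gene, with r = 0.971, Ddr2, a collagen receptor gene, with r = 0.970, and Nid1, which encodes the basement membrane protein nidogen, with r = 0.969. Ddr2 had 165, 230 and 328 scaled reads in Ovp libraries A, B and C, and 235, 288 and 236 in Ctrl libraries A, B and C. Nid1 had 539, 779 and 988 in Ovp libraries and 726, 929 and 762 in Ctrl libraries, in the same order. For Slc12a4, with its values within 2-fold of the mean, they were Zfp110, a zinc finger gene, with r = 0.978, Sufu, an inhibitor of Hedgehog signalling, with r = 0.971, and AU021092 with r = 0.961. Sufu had 361, 344 and 407 scaled reads in Ovp and 319, 333 and 337 in Ctrl libraries A, B and C. With 6 points and 4636 genes such values are common, as 45 genes had r of at least 0.9 with Slc12a7 and 16 with Slc12a4. All genes share the library and its scaling factor, and these r values are a description only.

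The few meningeal and vascular markers with library values were set beside Slc12a7, as sums. Of 5 meningeal markers 2 had library values, Lum and Slc6a13, and their sum was 88, 150 and 220 scaled reads in Ovp libraries A, B and C, against 170, 210 and 160 in Ctrl libraries A, B and C. Of 6 endothelial and mural markers 2 had them, Pecam1 and Kcnj8, with sums of 476, 609 and 687 in Ovp libraries and 646, 659 and 575 in Ctrl libraries. Pecam1 makes up most of that sum. By itself Pecam1 was lowest in Ovp library A, at 415, but highest in Ctrl library B, at 590, against 572 in Ovp library C. Kcnj8 by itself was at 81.5, 69.1 and 83.8 in Ctrl libraries A, B and C, lowest where Slc12a7 was highest. Both sums were lowest in Ovp library A and highest in Ovp library C, as Slc12a7 was, and the scaling factor was highest in Ovp library A, at 1.23, and 0.966 in Ovp library C. The choroid plexus is a chloride-transporting epithelium that lies near the cortex. Its defining marker Ttr was searched with no limit on the spread between libraries. Ttr was at 97.8, 170 and 97.3 in Ovp libraries and at 76.4, 713 and 79.4 in Ctrl libraries. Among Ctrl libraries, B held the most Ttr and the most Slc12a7. Among Ovp libraries, B held the most Ttr but C the most Slc12a7. The other 5 choroid plexus markers summed to 120, 32 and 97.3 in Ovp libraries and to 101, 119 and 47.4 in Ctrl libraries, and Otx2 was at 0 in Ovp library A and in Ctrl libraries A and C. The part of any of these tissues, or of the scaling factor, in the Slc12a7 values was not tested.

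**Figure D4:**
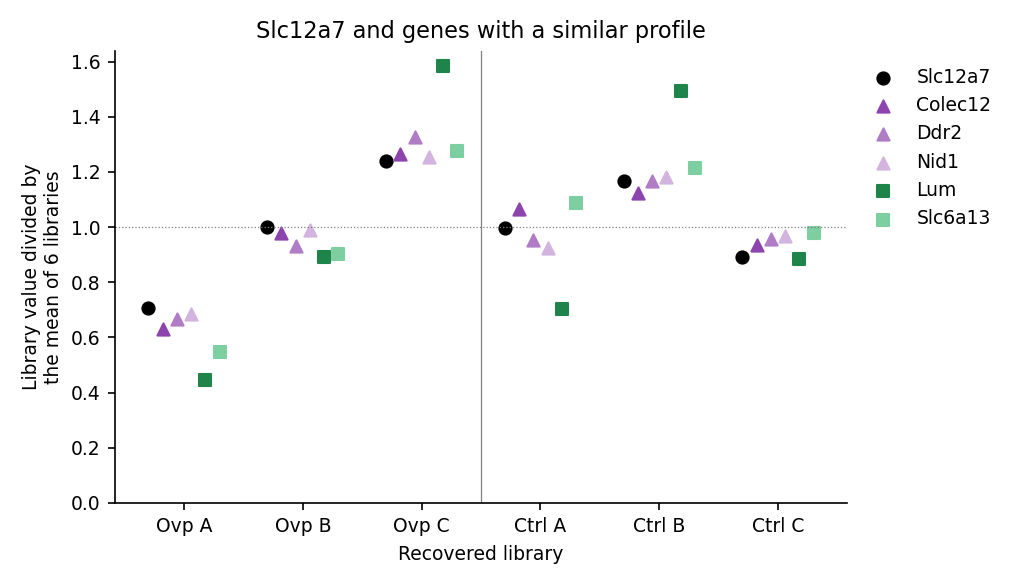
Value of each library divided by the mean of the 6 libraries for Slc12a7 (circles), the 3 genes with the most similar profile, Colec12, Ddr2 and Nid1 (triangles), and the meningeal markers with library values, Lum and Slc6a13 (squares); libraries of Ovp stand left of those of Ctrl and have no order within a group. All 6 genes are lowest in Ovp A and highest in Ovp C, where Slc12a7 had 83.9 and 147 scaled reads.

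The remaining genes of the family and its regulators were read as lists, chosen with earlier results of these data known. Of 62 genes in 5 lists the authors' deposited table called 0, and 0 fell below 0.05 before adjustment, with 26 higher and 36 lower in Ovp cortex and a median log2 fold change of -0.03. Of the 5 other Slc12 genes 0 were called, and their median log2 fold change was 0.12, the value of Slc12a9. That median leans on genes with few reads. Slc12a1 had a mean of 2.72 in Ovp and 2.47 in Ctrl cortex, and Slc12a3 5.79 in Ovp and 4.98 in Ctrl cortex. The median was 0.02 over the 3 genes averaging 10 or more, and 0.05 over the 2 averaging 100 or more. Slc12a9, an orphan member of the family, had a mean of 569.7 scaled reads in Ovp and 526 in Ctrl cortex. The library values of Slc12a9 overlapped, at 613, 598 and 499 in Ovp and 514, 498 and 565 in Ctrl libraries A, B and C. Slc12a8 had a mean of 17.8 in Ovp and 17.5 in Ctrl cortex.

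WNK kinases sense chloride and, through the kinases SPAK (Stk39) and OSR1 (Oxsr1), activate NKCC1 and inhibit the potassium-chloride cotransporters. Of 12 genes of that pathway 6 had higher and 6 lower means in Ovp cortex, with log2 fold changes from -0.18 to 0.28 and a median of -0.00026. Wnk1 had a mean of 4119 in Ovp and 4117 in Ctrl cortex, Wnk2 3669 in Ovp and 3684 in Ctrl cortex, and Nedd4l, a ubiquitin ligase gene, 3673 in Ovp and 3676 in Ctrl cortex. The log2 fold changes of these 3 lay between -0.0059 and 0.00083, and the list had as many genes higher as lower.

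Among 16 partners and regulators of KCC2, 3 had higher and 13 lower means in Ovp cortex, with a median log2 fold change of -0.07, where 57.8% of all tested genes averaging 100 or more were lower. Ckb, a brain creatine kinase that binds KCC2, had a mean of 15683 in Ovp and 16543 in Ctrl cortex. Gabbr1, a GABA-B receptor subunit gene, had 14954 in Ovp and 15308 in Ctrl cortex, and Ntrk2, which encodes the BDNF receptor TrkB, had 11576 in Ovp and 12952 in Ctrl cortex. The log2 fold changes of the 16 ran from -0.24 to 0.23. The median over the 6 neuronal markers was -0.07 as well, and their part in the list's values was not tested.

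The sodium-potassium ATPase makes the gradients on which all cotransporters run. Of 8 subunit and regulator genes 3 had higher and 5 lower means, with a median log2 fold change of -0.04. The β-subunit gene Atp1b1 had a mean of 28483 in Ovp and 28378 in Ctrl cortex. Of 21 chloride channel, anion exchanger and carbonic anhydrase genes 10 had higher and 11 lower means, with log2 fold changes from -0.13 to 0.55 and a median of -0.02. Clcn4, an intracellular chloride-proton exchanger gene, had a mean of 5148 in Ovp and 5221 in Ctrl cortex. Slc4a10, a sodium-dependent bicarbonate transporter gene of neurons, had 4713 in Ovp and 5059 in Ctrl cortex, and Lrrc8b, a subunit gene of volume-regulated anion channels, had 4496 in Ovp and 4724 in Ctrl cortex.

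**Figure D5:**
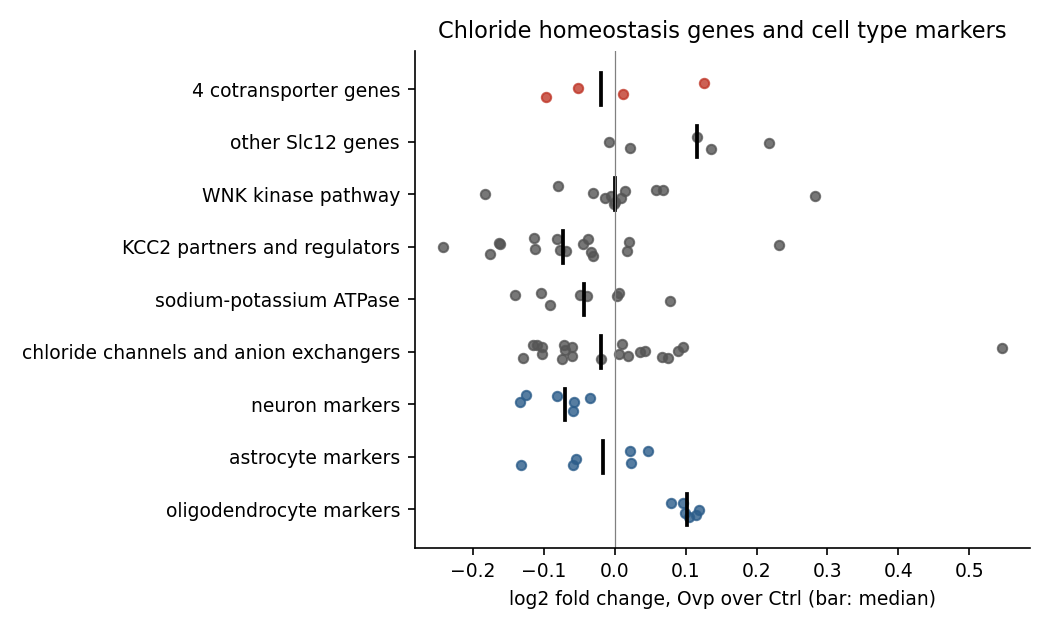
Log2 fold change (Ovp over Ctrl) of each gene, by list, with the median as a bar; red points are the 4 cotransporter genes, grey points the chloride homeostasis lists and blue points cell type markers, and vertical scatter within a list has no meaning. All 6 neuron markers lie below 0 and all 6 oligodendrocyte markers above it, and no point was called by the authors' test.

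The other marker lists had no called gene in the authors' deposited table. Astrocyte markers were higher for 3 and lower for 3 genes, with a median log2 fold change of -0.02. Oligodendrocyte precursor markers were higher for 3 and lower for 2, with a median of 0.01, and endothelial and mural markers higher for 3 and lower for 3, with a median of 0.03. Microglial markers were higher for 3 and lower for 2, with a median of 0.04, and meningeal markers higher for 1 and lower for 4, with a median of -0.03. All 5 progenitor markers were higher, with a median of 0.08. Of 6 choroid plexus markers 1 was higher and 5 lower, with a median of -0.40, and the lowest, Ttr, rested on Ctrl library B. Among the lower ones, Folr1, Kcne2 and Otx2 had very few reads. Their means were 3.29, 3.77 and 0.659 in Ovp and 5.25, 3.93 and 1.44 in Ctrl cortex.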

How the data were processed

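RNA was measured in 3 Ovp and 3 Ctrl libraries of cortex. Trizol served for extraction and an Illumina TruSeq RNA kit for library preparation, per the labels' protocols. The submitters' processing notes list TopHat2 2.0.9 and Bowtie2 2.0.6. For the counter, the strand setting, the build and the test behind the p-values, nothing is given in the sources used here. The authors deposited 1 signal value per gene and group, a mean of scaled read counts as read from the values, together with p-values before and after adjustment, per the file headers. Each fold change was computed here from the group means (log2 of Ovp over Ctrl, no pseudocount). A gene was called at an adjusted p under 0.05.

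The members and lists were chosen with earlier results of these data known. The planned tests foresaw values per library. These were recovered from the group means, given to 10 significant digits, by matching each to whole reads of 3 libraries, over all combinations up to a mean of 100 and within 2-fold of the mean from there to 1000. Exactly 1 combination was found for 89.2% of 24203 Ovp means and 99.9% of 23575 Ctrl means up to 1000. In simulated means 100% of the unique combinations were right in both groups. The simulated libraries had a small spread, so the 2-fold limit itself was not put to the test. Real values can lie outside it, as Ttr did in Ctrl library B. Among real means between 300 and 1000, 40.4% of Ovp and 99.6% of Ctrl means were unique, so highly expressed genes are mostly missing. limma 3.58.1 in R 4.3.3, with a mean-variance trend, was fitted to log2(value + 1) of 10191 genes averaging 10 or more, with Benjamini-Hochberg adjustment, and was tested on simulated data. The recovery and the tests on it were chosen after seeing the file. Exact permutation tests used scipy 1.17.1. Intervals reflect the spread between libraries, and counting error alone was not computed. Named genes were the 4 members, the 3 list genes with the highest means in each list without a call, and the 3 genes most like a member over libraries. Ctnnb1, Usf1, Usf2, Egr4 and marker genes are named outside that rule. Some genes that this rule names are not reported here.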

Additional observations from a re-analysis of the deposited data

How the results depend on the processing

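Of 51 values computed under the alternatives, 0 moved by more than 1 SD between libraries (the gene's own, or 0.127 on the log2 scale where it has no library values) and 0 changed a count of members called, whether by limma, by adjustment over genes averaging 10 or more, or with no adjustment. The balance and the list medians are among the 51 and were also set against 0.127, a wide limit for a median. Pseudocounts could hardly move genes as high as Slc12a5 and Slc12a2. A change of sign within 1 SD did not count as moved. Scaling both groups to the same total put Slc12a5 at -0.06 and Slc12a2 at 0.04 on the log2 scale, and a pseudocount of 10 left the balance at -0.11. Leaving out 1 recovered library put the log2 ratio of Slc12a4, with values within 2-fold of the mean, between 0.05 and 0.17, and that of Slc12a7 between -0.25 and 0.14, with the sign changed without Ovp library A and without Ctrl library B. Over 9 alternatives the limma adjusted p lay between 0.922 and 0.9999 for Slc12a4 and between 0.970 and 0.9999 for Slc12a7. Over all genes limma called 0 in the main setting, where 216 fell below 0.05 before adjustment, and 1 with no filter on low values. No library could be left out for Slc12a5, Slc12a2 or their balance, since they have no settled library values. No paired analysis was possible because the deposited columns are group means and the recovered libraries carry no replicate numbers. The search within 1.5-fold of the group mean, the libraries left out of the limma fit and the transcript lengths were chosen after seeing the data.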
